A study of Mus musculus with 12 samples.

Results

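The autophagy machinery is described here in Cd11b-positive myeloid cells sorted from the brains of male mice of 6 months of age. It was taken as 44 mouse genes, given by symbol and found in the deposited tables through their Entrez gene numbers, out of 36528 gene numbers listed. A group of 6 RNA-seq libraries came from mice carrying human MAPT with the P301S mutation (labelled hMAPT-P301S, here P301S), a tau mutation known from inherited frontotemporal dementia. The other 6 were of non-transgenic littermates (NonTg). The sources used here do not give the strain, the promoter that drives the transgene or the number of animals behind a library. Every library has its own sample identifier, but no label ties it to a single animal, so p-values measure only the spread between these samples, which may be technical.

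Macroautophagy encloses cytoplasm in a double membrane, the autophagosome, and delivers it to the lysosome. The ULK kinase complex starts the process, and a class III PI3-kinase complex marks the site with the lipid PI3P. ATG9 and the ATG2 proteins supply membrane, and a pair of ubiquitin-like conjugation systems attach proteins of the ATG8 family (the LC3 and GABARAP proteins) to it. Receptors that bind ATG8 proteins bring in cargo, and SNARE proteins with the HOPS tether fuse the closed autophagosome with the lysosome. In microglia, the brain's resident macrophages, the same lipidation machinery is also known to act on phagosomes.

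None of the 44 genes passed the test between genotypes. Enough counts for a test were found for 40, and 0 of these 40 had a Benjamini-Hochberg adjusted p under 0.05 in edgeR's quasi-likelihood test, where 3.87% of all 10022 genes tested did (2.37% higher and 1.5% lower in P301S). At an unadjusted p under 0.05 there were 5 of the 40 (12.5%), against 15.8% of all genes tested. Of the 5, 4 had higher estimates in P301S (Gabarapl1, Gabarap, Ambra1 and Atg2a, against 8.02% of all genes) and Rb1cc1 had a lower one (against 7.74% of all genes). Without a filter on low counts edgeR called 0 of the 44 and 3.63% of all 29308 genes with a count. Other tools run on the filtered genes each called 1 member. DESeq2 called Gabarapl1 (adjusted p = 0.0475, with 7.37% of all genes called), limma-voom called Rb1cc1 (adjusted p = 0.0478, with 4.62% of all genes called), and limma on the deposited RPKM values called Gabarap. The estimate was higher in P301S for 28 of the 40 tested members (70.0%) and for 48.8% of all genes tested. The median log2 fold change was 0.22 over the tested members and -0.02 over all genes tested. Folds here are P301S minus NonTg on the log2 scale, from counts scaled by TMM factors, and adjusted p-values are over all genes tested.

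**Figure D1:**
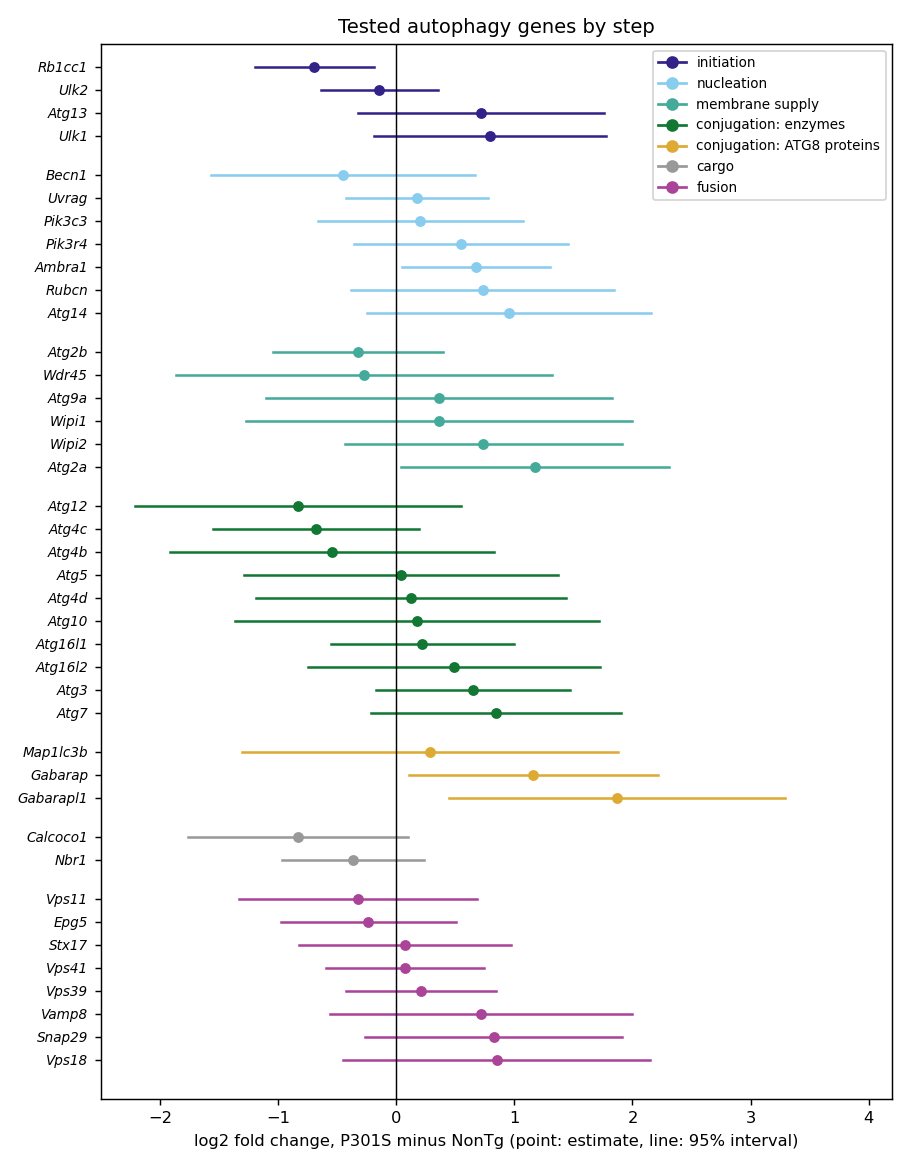
Log2 fold change (P301S minus NonTg) of the 40 tested autophagy genes, grouped by step from initiation at the top to fusion at the bottom, with points for estimates and lines for 95% intervals. Estimates run from -0.83 to 1.87, and the lines of Rb1cc1, Ambra1, Atg2a, Gabarap and Gabarapl1 alone do not cross 0.

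The libraries were shallow and variable. Total counts ranged from 1196069 to 4145069 with a median of 2488085, so a single count was worth 0.241 to 0.836 CPM (counts scaled to a common library total). The median total was 1972184 in NonTg and 2897453 in P301S. Counts summed by group below are not corrected for this difference in depth. Transcripts of the mitochondrial genome took 10.0% to 19.2% of the counts in NonTg and 14.97% to 32.1% in P301S, and Malat1, a nuclear noncoding RNA, took 12.4% to 19.2% in NonTg and 7.82% to 10.6% in P301S. All 12 microglial markers were tested and 7 of them fell in P301S, and their summed level was 11636 to 15528 CPM in NonTg and 5926 to 8278 CPM in P301S. Markers of other cells were low: summed levels were at most 335 CPM for monocytes, 73.0 CPM for neutrophils, 74.9 CPM for border macrophages, 18.7 CPM for B cells and 14.6 CPM for T and natural killer cells. Neuronal and oligodendrocytic markers reached at most 360 and 487 CPM. Astrocytic markers summed to 62.0 to 188 CPM in NonTg and 87.8 to 200.4 CPM in P301S, and endothelial markers to 8.12 to 34.1 CPM and 21.3 to 82.1 CPM. The defining markers Nkg7, Gzma and Cldn5 had no count in any library, while the astrocyte gene Gfap and the endothelial gene Flt1 rose in P301S from low levels. Other tested genes of these lists were not called and did not share that rise. Their log2 fold changes were 0.25 for Aqp4, -0.06 for Slc1a3, -0.06 for Gja1 and -0.34 for Aldoc, and -1.69 for the endothelial Pecam1. Flt1 alone had a mean of 4.30 CPM in NonTg and 34.2 CPM in P301S, a large part of the endothelial sum. Whether any of these measures has a part in the values of the autophagy genes was not tested, and in sorted bulk RNA fewer cells of a type and less RNA per cell cannot be told apart. The tables list mouse genes only, so the human transgene itself was not measured here, and mouse Mapt differed by -0.30 ± 0.78 (SE) on the log2 scale with an edgeR adjusted p of 0.915. The libraries least like their own group across genes were NonTg 3 (median r = 0.712) and P301S 4 (median r = 0.739). Replicate numbers only name libraries.

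Levels between genes were compared with the deposited values, RPKM (read counts scaled by gene length and library size) to which the authors applied a size factor per library. In NonTg the highest mean belonged to Rb1cc1, which encodes the FIP200 scaffold of the ULK complex, at 10.3 RPKM (7.61 to 13.8). The cargo receptor gene Nbr1 (5.27 RPKM), the kinase gene Ulk2 (5.19) and Ambra1 (5.17), which encodes a Beclin 1 partner, came next. In P301S the order was another, with Ambra1 at 8.33 RPKM (3.97 to 11.3), the SNARE gene Vamp8 at 6.53 RPKM (3.76 to 12.1), Rb1cc1 at 6.42 RPKM (2.88 to 10.4) and Atg3 at 6.12 RPKM (3.40 to 10.3). The ranges of these 4 genes in P301S overlapped, as did those of Nbr1, Ulk2 and Ambra1 in NonTg, so no order among them is larger than the spread. In NonTg the range of Rb1cc1 overlapped those of Nbr1 (up to 7.71 RPKM) and Ambra1 (up to 10.4 RPKM), but not that of Ulk2 (up to 6.16 RPKM). At the low end were Atg9a, which encodes the membrane-spanning ATG9 protein, at 0.283 RPKM in NonTg and 0.363 RPKM in P301S, and the untested Map1lc3a (0.281 and 0.210 RPKM) and Atg4a (0.368 and 0.0798 RPKM). Their ranges overlapped in NonTg, where Atg4a was listed at 0 in 3 of 6 libraries. Transcripts of Atg9a match those of Gm29253 at 100% over 1832 bases, so the level of Atg9a is uncertain. For comparison, the microglial marker Itgam, which encodes Cd11b itself, had means of 89.6 RPKM in NonTg and 60.0 RPKM in P301S. Itgam was among the markers that fell (-0.58 ± 0.15, edgeR adjusted p = 0.0264).

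**Figure D2:**
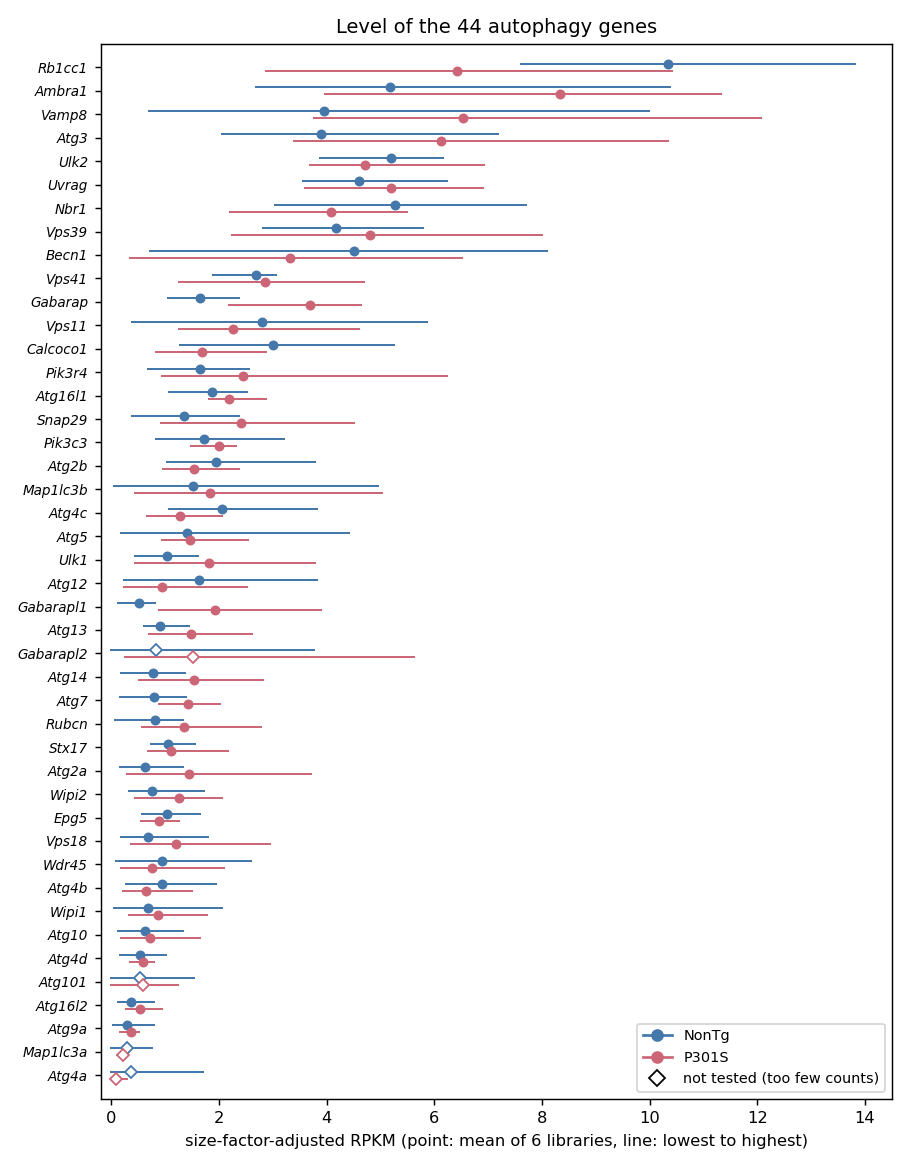
Deposited size-factor-adjusted RPKM of the 44 autophagy genes, ordered by their mean over 12 libraries. Points are means of 6 libraries (blue NonTg, red P301S), lines run from the lowest to the highest library, and open diamonds mark the 4 genes with too few counts to test; among the tested genes the lines of Gabarapl1 alone do not overlap between genotypes.

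Too few counts were found for 4 members. Atg101, a subunit of the ULK complex, had 53 counts summed over the 6 NonTg libraries and 85 over the 6 P301S libraries, and was at 0 in 1 library of each group. Scaled for depth, its mean was 4.40 CPM in NonTg and 4.84 CPM in P301S. Atg4a, a protease that primes and recycles ATG8 proteins, had 17 counts in NonTg, 15 of them in a single library, and 4 in P301S. The ATG8 genes Map1lc3a (22 and 17 counts) and Gabarapl2 (38 and 89 counts) were also below the filter. A library with 0 counts of a gene still allows up to 3 counts, between 0.724 and 2.51 CPM at these depths. No fold change is given for these genes. Only uniquely aligned reads were counted, so the values of genes with near-identical copies are uncertain: over at least 300 bases, transcripts of Gabarapl2 match 3 annotated pseudogenes at 95% identity or more, and Atg4a matches Atg4a-ps at 99.3% over 2115 bases.

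Of the ULK complex, 4 of 5 genes were tested and their median log2 fold change was 0.29. Rb1cc1 (chromosome 1, 6214634 to 6276375 in GRCm38) had 498, 389, 277, 419, 380 and 280 CPM in the NonTg libraries and 253, 242, 263, 367, 103 and 163 CPM in the P301S libraries. The P301S libraries lay lower except for P301S 4 at 367 CPM, and the groups overlapped. The mean was 374 ± 84.7 CPM (SD, n = 6) in NonTg and 232 ± 90.6 CPM in P301S, a log2 fold change of -0.69 ± 0.25 (SE; 95% interval -1.20 to -0.19; edgeR unadjusted p = 0.00889, adjusted p = 0.121). Without P301S 4 it was -0.88 with an edgeR adjusted p of 0.0347, and limma-voom with all libraries gave -0.82. A processed pseudogene, Gm13961, matches Rb1cc1 transcripts at 95.6% over 1324 bases, and an antisense gene, 4732440D04Rik, overlaps it; no source used here gives the strandedness of the libraries, so reads within the overlap cannot be assigned to one or the other. Over the 12 libraries 4732440D04Rik had 373 counts of its own and Rb1cc1 had 8306.

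The kinases themselves showed no difference larger than the spread. Ulk1 ranged from 10.96 to 40.8 CPM (median 28.3) in NonTg and from 10.97 to 94.8 CPM (median 34.5) in P301S, with a log2 fold change of 0.79 ± 0.48 and an edgeR adjusted p of 0.455. Ulk2 was steadier, at 142 ± 25.6 CPM in NonTg and 129 ± 32.2 CPM in P301S. Its log2 fold change of -0.14 ± 0.24 had the smallest SE of all tested members, and its interval of -0.64 to 0.35 leaves out a doubling or a halving. Atg13, the regulatory subunit, had 15.1 ± 5.91 CPM in NonTg and 24.9 ± 11.7 CPM in P301S (0.72 ± 0.51, edgeR adjusted p = 0.547).

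All 7 nucleation genes were tested, 6 with higher estimates in P301S and a median of 0.55. Ambra1 (chromosome 2, 91730138 to 91918849) had 167, 247, 63.0, 85.5, 76.3 and 96.6 CPM in NonTg and 227, 94.6, 213, 261, 166 and 220 CPM in P301S. In each group there were exceptions to the order. NonTg 2 lay above all P301S libraries but P301S 4, and NonTg 1 at 167 CPM lay above P301S 5 at 166 CPM. P301S 2 lay among the lower NonTg libraries. The log2 fold change was 0.67 ± 0.31 (95% interval 0.05 to 1.30; edgeR unadjusted p = 0.0364, adjusted p = 0.270), and over all alternatives the adjusted p lay between 0.0527, without NonTg 2, and 0.437. Atg14, which directs the PI3-kinase to autophagosome formation, had 12.02 ± 7.41 CPM in NonTg and 23.5 ± 13.9 CPM in P301S (0.96 ± 0.59, edgeR adjusted p = 0.465). Rubcn, an inhibitor of that kinase that is also known from phagosomes, had 20.1 ± 12.1 and 33.4 ± 18.5 CPM (0.73 ± 0.54, edgeR adjusted p = 0.582). The other nucleation genes had log2 fold changes of 0.55 for the regulatory subunit Pik3r4, 0.21 for the catalytic subunit Pik3c3, 0.18 for Uvrag and -0.45 for Becn1, which encodes Beclin 1. Transcripts of Becn1 overlap those of Cntd1 on the opposite strand, over 1299 bases at most. Over the 12 libraries Becn1 had 881 counts and Cntd1 had 745. As the strandedness is not given, reads within the overlap cannot be assigned to one or the other, and the value of Becn1 is uncertain.

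Of the 6 genes for membrane supply, all tested, Atg2a had the smallest p. This lipid transfer protein gene (chromosome 19, 6241478 to 6262304) had 37.3, 22.0, 4.57, 7.13, 12.2 and 23.6 CPM in NonTg and 30.5, 35.8, 25.5, 7.75, 104 and 40.8 CPM in P301S. The groups overlapped, with NonTg 1 among the P301S libraries and P301S 4 among the lowest NonTg ones. The log2 fold change was 1.17 ± 0.55 (95% interval 0.04 to 2.31; edgeR unadjusted p = 0.0425, adjusted p = 0.293), and 0.64 without P301S 5, the library at 104 CPM. Its paralogue Atg2b had an estimate on the other side of 0, at 87.7 ± 48.3 CPM in NonTg and 69.6 ± 29.7 CPM in P301S (-0.32 ± 0.35, edgeR adjusted p = 0.745), and -0.03 without NonTg 3; whether the paralogues differ from each other was not tested. Wipi2, which binds PI3P and recruits ATG16L1, had 14.7 ± 12.2 and 24.6 ± 11.5 CPM (0.74 ± 0.57, edgeR adjusted p = 0.607). The remaining PI3P-binding genes Wipi1 (0.36) and Wdr45 (-0.27) and the scramblase gene Atg9a (0.36) had SE of 0.71 to 0.80. Transcripts of Wdr45 match those of Gm45208 at 100% over 673 bases, so the value of Wdr45, like that of Atg9a, is uncertain.

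The conjugation enzymes were tested for 10 of 11 genes, and the median log2 fold change was 0.15. The smallest p-values belonged to the E1-like Atg7, the E2-like Atg3 and the protease Atg4c. Atg7 had 15.5 ± 7.59 CPM in NonTg and 27.6 ± 10.3 CPM in P301S (0.84 ± 0.52), Atg3 had 37.6 ± 17.3 and 59.1 ± 30.7 CPM (0.65 ± 0.40), and both had an edgeR adjusted p of 0.465. Atg4c had 46.9 ± 23.7 CPM in NonTg and 29.2 ± 12.6 CPM in P301S (-0.68 ± 0.43, edgeR adjusted p = 0.483). Of the ATG12-ATG5-ATG16L1 complex, which acts as the E3, Atg5 had a log2 fold change of 0.04, Atg16l1 0.22 and Atg12 -0.83. Atg16l2, a paralogue of Atg16l1, was at 0.49. The most even of these was Atg16l1, at 34.8 ± 10.6 CPM in NonTg and 40.6 ± 7.62 CPM in P301S with an interval of -0.55 to 0.99. Atg10, the E2-like enzyme for ATG12, was at 0.18, and the other proteases Atg4b and Atg4d were at -0.55 and 0.13. Transcripts of Atg4d (294 counts over the 12 libraries) overlap those of Kri1 (910 counts) on the opposite strand, over 792 bases at most. Reads there cannot be assigned without the strandedness, so the value of Atg4d is uncertain.

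The ATG8 family held the member with the largest estimate. Gabarapl1 (chromosome 6, 129533192 to 129542331) had 2.44, 4.71, 0.914, 4.99, 4.87 and 6.44 CPM in NonTg and 8.04, 30.9, 26.5, 7.75, 6.98 and 10.9 CPM in P301S. Every P301S library lay above every NonTg library, with P301S 2 and P301S 3 well above the rest and P301S 5 at 6.98 CPM close to NonTg 6 at 6.44 CPM. It was the only one of the 40 tested members whose groups did not overlap, a pattern seen in 3.28% of all genes tested. The means were 4.06 ± 2.01 and 15.2 ± 10.7 CPM, from 56 counts in NonTg and 265 in P301S. The log2 fold change was 1.87 ± 0.70 (95% interval 0.44 to 3.29; edgeR unadjusted p = 0.0121, adjusted p = 0.145), 1.53 without P301S 2, and past the threshold only with DESeq2.

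Gabarap (chromosome 11, 69991370 to 69994949) had 10.1, 14.9, 8.22, 12.8, 8.93 and 6.71 CPM in NonTg and 27.0, 23.6, 13.8, 23.9, 20.9 and 29.1 CPM in P301S. Of the P301S libraries, 5 lay above all NonTg libraries, and P301S 3 at 13.8 CPM lay below NonTg 2 at 14.9 CPM. The means were 10.3 ± 3.06 and 23.0 ± 5.36 CPM, and the log2 fold change was 1.16 ± 0.51 (95% interval 0.11 to 2.21; edgeR unadjusted p = 0.0322, adjusted p = 0.252). On the log2(RPKM + 1) scale limma gave a difference of 0.82 with an adjusted p of 0.0416 (3.96% of all genes called), and on the log2(RPKM + 0.1) scale 1.13 with an adjusted p of 0.0406 (4.1% of all genes called).

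Map1lc3b, which encodes the widely used autophagosome marker LC3B, gave no usable direction. It ranged from 0.406 to 37.8 CPM (median 9.08) in NonTg and from 3.23 to 38.9 CPM (median 8.97) in P301S, with a log2 fold change of 0.29 ± 0.78 (edgeR adjusted p = 0.918) that turned to -0.34 without P301S 1. Its transcripts match 4 processed pseudogenes over at least 300 bases, the closest, Gm6055, at 99.7%, so its values are uncertain where only unique reads are counted. The summed level of the 5 ATG8 genes was 2.28 to 11.7 RPKM in NonTg (median 3.30) and 6.01 to 11.3 RPKM in P301S (median 9.81). These sums overlapped, with Gabarap the largest part by median, at a share of 47.0% (17.5% to 66.2%) in NonTg and 37.4% (30.2% to 56.2%) in P301S. The ranges overlapped between groups and with those of Map1lc3b (2.17% to 43.0% in NonTg and 3.86% to 46.3% in P301S). The sums include the untested Map1lc3a and Gabarapl2, and Map1lc3b and Gabarapl2 match pseudogenes, so the shares are uncertain.

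**Figure D3:**
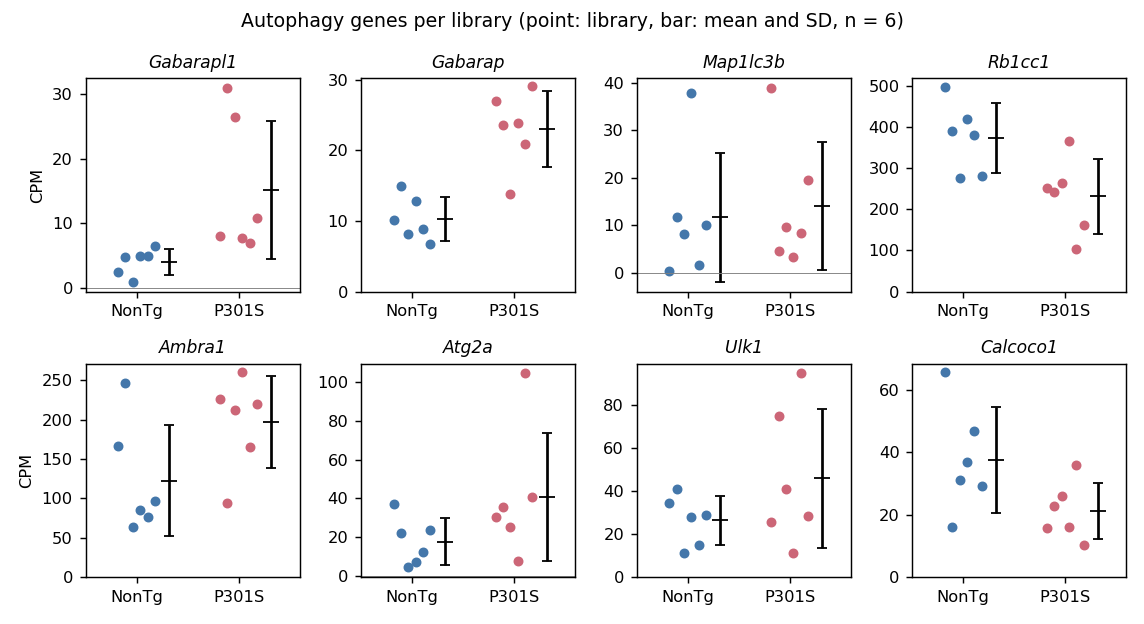
CPM of 8 autophagy genes in each library (points; blue NonTg, red P301S) with the mean and SD of 6 libraries (black bars), each gene on its own linear axis. The P301S points of Gabarapl1 all lie above the NonTg points, those of Gabarap nearly all do, and the other genes overlap between genotypes.

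The cargo receptors in the list were Nbr1, a receptor for ubiquitinated cargo, and Calcoco1, known as a receptor for endoplasmic reticulum and Golgi. Both had lower estimates in P301S and neither passed. Calcoco1 had 37.7 ± 17.1 CPM in NonTg and 21.1 ± 9.09 CPM in P301S (-0.83 ± 0.45; edgeR unadjusted p = 0.0780, adjusted p = 0.393). Nbr1 had 121 ± 45.2 and 93.5 ± 27.6 CPM (-0.36 ± 0.29, edgeR adjusted p = 0.629).

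All 8 fusion genes were tested, with a median of 0.14. The SNARE genes Snap29 and Vamp8 had estimates of 0.82 ± 0.53 and 0.72 ± 0.62 (edgeR adjusted p = 0.498 and 0.660), from 20.5 ± 13.1 to 36.9 ± 25.5 CPM and from 13.9 ± 14.1 to 22.8 ± 10.7 CPM. Their partner Stx17, the syntaxin of the closed autophagosome, was at 0.07. Vps18, shared by the HOPS and CORVET tethers, had 12.2 ± 10.8 and 21.7 ± 17.3 CPM (0.85 ± 0.63, edgeR adjusted p = 0.585), and 0.34 without P301S 1. The HOPS genes Vps39 and Vps41 were at 0.21 and 0.07 with SE of 0.31 and 0.33, and their intervals (-0.42 to 0.84 and -0.59 to 0.74) lay within 1 log2 unit of 0. Vps11 was at -0.32, and Epg5, a tether of autophagosome and late endosome, at -0.24.

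What these data could resolve was set by the spread between libraries more than by counting. The median SE of a tested member was 0.52 against 0.56 for all genes tested, at a median level of 28.5 CPM against 22.1 CPM. The median coefficient of variation of a member's CPM was 56.3% in NonTg and 47.0% in P301S, where counting alone would give 14.2% and 11.1%. For 32 of the 40 tested members the 95% interval reached a 2-fold difference in at least one direction, and for 8 (20.0%, against 16.9% of all genes tested) it stayed within that bound. The smallest size of a log2 fold change among the 388 genes called was 0.58. For most of these genes, then, the interval did not leave out a 2-fold difference at this depth and spread, and the lack of calls does not show equal levels.

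**Figure D4:**
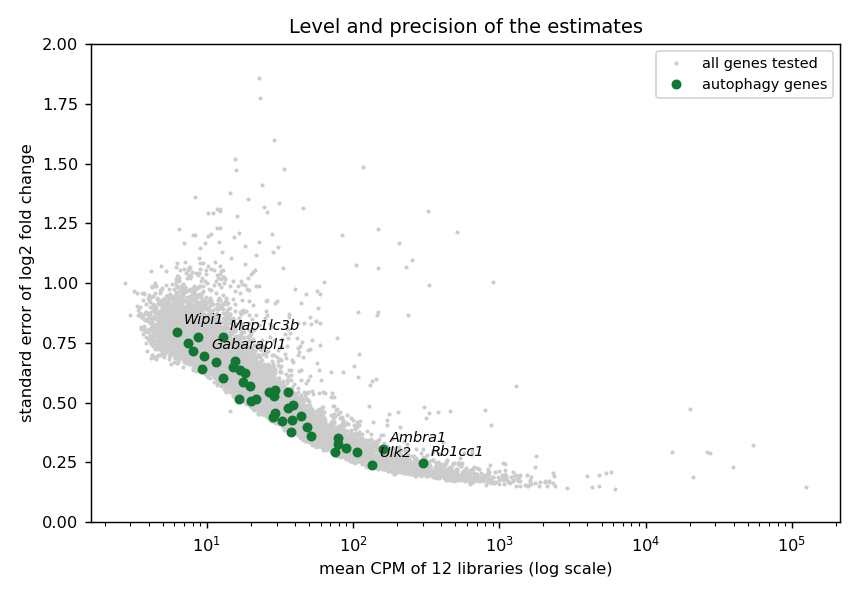
Standard error of the log2 fold change (y axis) against the mean CPM of 12 libraries (x axis, log scale) for all 10022 genes tested (grey) and the 40 tested autophagy genes (green). Autophagy genes lie in the band of other genes of their level, from 0.80 at Wipi1 to 0.24 at Ulk2.

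Around the core machinery, 55 related genes were examined: upstream kinases and transcription factors, other early genes, other receptors and other late genes. Of these, 46 were tested, and 2 rose and 1 fell in P301S (edgeR adjusted p under 0.05, against 3.87% of all genes tested). Their median log2 fold change was 0.13. At an unadjusted p under 0.05 there were 11 (23.9%, against 15.8%), 6 with higher and 5 with lower estimates.

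The gene that fell was Prkaa1, the alpha 1 catalytic subunit of AMP-activated kinase, which is known to activate ULK1. It had 192, 85.5, 203, 183, 159 and 71.4 CPM in NonTg and 57.2, 61.8, 56.6, 91.7, 59.6 and 54.7 CPM in P301S. The P301S libraries were low and close together, and only P301S 4 lay above the lowest NonTg libraries, NonTg 2 and NonTg 6. The log2 fold change was -1.23 ± 0.29 (95% interval -1.83 to -0.63; edgeR adjusted p = 0.0124), and the adjusted p was 0.0528 and 0.0538 with limma on the RPKM values. The tested regulatory subunits of the kinase did not share a direction: the estimates were -0.81 ± 0.37 for Prkab1, 1.23 ± 0.71 for Prkab2 and 0.03 ± 0.68 for Prkag1 (edgeR adjusted p = 0.270, 0.426 and 0.989).

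Mitf, a transcription factor of the MiT/TFE family that is known to act on lysosomal and autophagy genes, had 41.0, 36.9, 38.4, 43.5, 28.4 and 54.5 CPM in NonTg and 55.9, 95.5, 77.5, 91.7, 78.4 and 157 CPM in P301S. The groups did not overlap, although P301S 1 at 55.9 CPM was close to NonTg 6 at 54.5 CPM. Mitf rose by 1.19 ± 0.32 (95% interval 0.54 to 1.85; edgeR adjusted p = 0.0300). The call was lost without NonTg 2, NonTg 5, P301S 2 or P301S 6 in turn, with the highest adjusted p, 0.134, without P301S 6, and with limma-voom, total counts only and both RPKM scales. Its relatives Tfeb and Tfe3, chosen after their values were seen, had -1.02 ± 0.73 and 0.21 ± 0.41 (edgeR adjusted p = 0.558 and 0.885).

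Lamp1, a major glycoprotein of the lysosomal membrane, had 183, 158, 132, 162, 123 and 168 CPM in NonTg and 196, 309, 263, 326, 249 and 259 CPM in P301S. All P301S libraries lay above all NonTg libraries. Lamp1 rose by 0.79 ± 0.21 (95% interval 0.36 to 1.22; edgeR adjusted p = 0.0280), with a call that was lost with total counts only (adjusted p = 0.0710) and without NonTg 5, P301S 2, P301S 4 or P301S 6 (0.0514 to 0.0676). Of the 12 tested late genes, Lamp1 included, 8 had higher and 4 had lower estimates in P301S, and 4 and 1 of these had an unadjusted p under 0.05. Those with higher estimates, chosen after their values were seen, were Lamp2, the late endosomal GTPase gene Rab7 and the tether gene Vps33a beside Lamp1 (0.58 ± 0.20, 0.82 ± 0.26 and 0.95 ± 0.43; edgeR adjusted p = 0.102, 0.0802 and 0.265). The one with a lower estimate was Fyco1, an adaptor for autophagosome transport (-0.52 ± 0.22, edgeR adjusted p = 0.208), and Rubcnl, at -0.64 ± 0.32, was the lowest of the 12. Optn, which encodes the receptor optineurin, had 3.37 ± 2.74 CPM in NonTg and 19.2 ± 10.9 CPM in P301S without overlap (2.54 ± 0.79, edgeR adjusted p = 0.0673, 34 and 346 counts), and it passed with DESeq2, limma-voom, no filter on low counts and both RPKM scales. Of the 11 tested genes in the receptor list, Optn included, 6 had higher and 5 had lower estimates, down to -1.51. At an edgeR unadjusted p under 0.05 there were 1 higher and 2 lower. Among the other early genes the smallest p belonged to Tecpr1 (0.80 ± 0.57, edgeR adjusted p = 0.554).

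**Figure D5:**
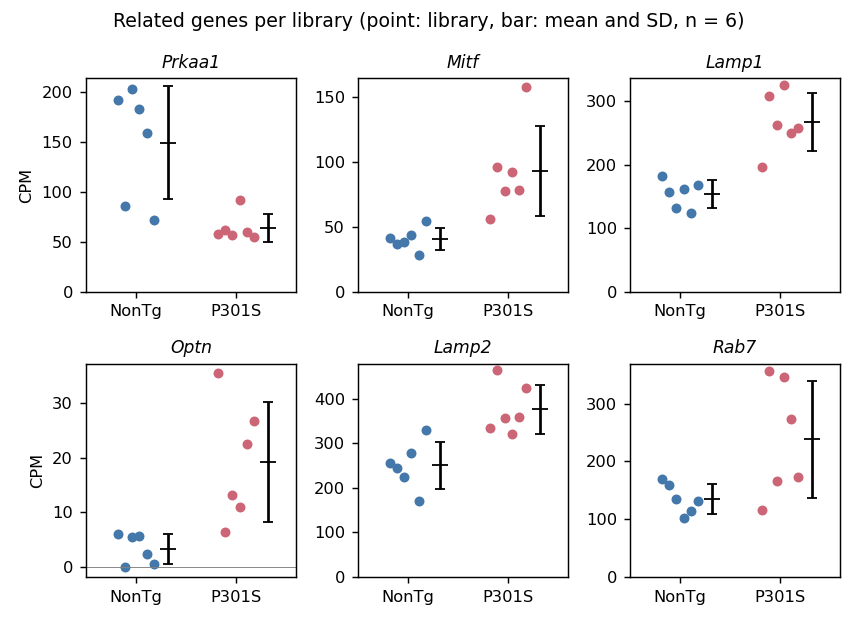
CPM of 6 related genes in each library (points; blue NonTg, red P301S) with the mean and SD of 6 libraries (black bars), each on its own linear axis. Prkaa1 fell, Mitf and Lamp1 rose, and Optn, Lamp2 and Rab7 had higher estimates that did not pass the test. Of all 46 tested related genes, 26 had higher and 20 had lower estimates.

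The promoters of the autophagy genes were searched for CACGTG, the E-box core that MiT/TFE factors are known to bind. Whether Mitf acts on any of these genes was not tested. The RefSeq promoter table for GRCm38.p6, 250 bases before to 50 bases after each start site, held 35 of the 44 genes. CACGTG, which reads the same on both strands, occurred in 5 of the 35 (14.3%) and in 8.09% of all 27025 genes of the table, tested here or not. The longer TCACGTGA, which contains it, occurred in 1 of the 35 (2.86%, against 1.12%). GTAAACA, the core bound by FOXO factors, was searched on both strands and occurred in none of the 35, against 4.05% of all genes. Among the related genes CACGTG occurred in 8 of 47 (17.0%). The 5 promoters of autophagy genes and, as the related gene with the most copies, that of Lamp1 run 5′ to 3′ on the strand of the gene, with each CACGTG in capitals.
Atg3 (chr16:45158723-45158775, plus strand): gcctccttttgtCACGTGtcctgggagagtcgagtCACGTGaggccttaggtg
Atg7 (chr6:114670952-114670981, plus strand): catattggtggtCACGTGtgcagtaagtga
Atg5 (chr10:44268313-44268342, plus strand): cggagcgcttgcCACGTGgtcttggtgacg
Rubcn (chr16:32868437-32868466, minus strand): cgcctagcacatCACGTGtacccaggttag
Atg14 (chr14:47568418-47568447, minus strand): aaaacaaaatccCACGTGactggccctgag
Lamp1 (chr8:13159088-13159163, plus strand): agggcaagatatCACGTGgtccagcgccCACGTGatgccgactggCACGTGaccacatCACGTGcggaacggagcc

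The copies in Atg3 begin 94 and 71 bases before the start site of that promoter, and Lamp1 has 4 within 61 bases. Those in Atg7, Rubcn, Atg5 and Atg14 begin 132, 88, 14 and 1 bases before theirs, so the copy in Atg14 runs across the start site. For Atg7 this is a start site inside the gene, which spans 114643127 to 114860604 on chromosome 6, and not at its outer end. The same holds for Rubcn, on the minus strand of chromosome 16 from 32821702 to 32877729. The log2 fold changes of the 5 autophagy genes with the motif were 0.96 for Atg14, 0.84 for Atg7, 0.73 for Rubcn, 0.65 for Atg3 and 0.04 for Atg5, and none passed the test. Gabarapl1 and Gabarap, with the largest estimates of the ATG8 genes, were in the table and had no CACGTG in this window. The related genes with the motif went in no shared direction: beside Lamp1 at 0.79, the estimates were 0.95 for Vps33a, -0.15 for Tbk1, -0.47 for Vps16, -0.49 for Rheb and -0.79 for Retreg1, and Nrbf2 and Bnip3 had too few counts. A match is a stretch of letters and not a measured binding site.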

How the data were processed

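Sorted cells were pelleted and their RNA taken up on small-scale columns, per the labels' protocols. GSNAP and build GRCm38 are named in the submitters' processing notes; for the counting tool, annotation release and strandedness nothing was given in the sources used here. The deposited count column holds uniquely aligned reads per gene model, per the file headers. The deposited second column holds RPKM values adjusted by a size factor per sample, per the file headers; it equalled the count times a library and a gene constant (largest relative deviation 2.8e-14). Symbols and positions (1-based) came from a RefSeq table of GRCm38.p6, which matched 31049 of the 36528 gene numbers (85.0%); 7220 numbers had no count. Groups follow the labelled genotype; replicate numbers follow record order. All 30 within-group pairs of libraries differed beyond sampling noise (chi-square per gene at least 18.2). Depth was 1196069 to 4145069 counts.

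Counts that passed filterByExpr (minimum count 10) were scaled by TMM and tested with the quasi-likelihood test of edgeR 4.0.16 (R 4.3.3, robust, no covariate, BCV 0.64), with Benjamini-Hochberg adjustment over 10022 genes and a threshold of 0.05. SE is the fold change over the square root of F. CPM use TMM-scaled library sizes. Alternatives were DESeq2 1.42.0, limma 3.58.1 (voom, and trend on log2(RPKM + 1) and log2(RPKM + 0.1)), RLE factors, total counts only, no filter, CPM of at least 1 in 6 libraries, no mitochondrial genes, and each library left out. The code was tested on simulated data. Similar transcripts were sought in GENCODE M21 with blastn 2.17.0+ (at least 300 bases, a length chosen after seeing repeats, and 95% identity). The genes and lists were chosen with earlier results of these data known. Named were members past the threshold, the 3 with the smallest p in each of 7 steps, untested members, and related genes that passed or had the smallest p of their role. Protein sequences were not used here.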

Additional observations from a re-analysis of the deposited data

Results flagged for a closer look

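Within a group of 6 libraries, 1 library lay far from the others on the log2 CPM scale for 3 of the 80 combinations of tested member and group; chance flags about 1 in 20. Becn1 was 3.25 CPM in P301S 2, where the other P301S libraries had 22.8 to 58.1 CPM. Atg7 was 3.25 CPM in NonTg 1, where the other NonTg libraries had 14.5 to 26.8 CPM. Vps41 was 53.0 CPM in NonTg 3, where the other NonTg libraries had 73.4 to 87.5 CPM.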

How the results depend on the processing

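The count of all genes called, 388, became 735 with DESeq2 and 1063 with no filter on low counts, which shifted the median of all genes to -0.25, and lay between 295 and 391 when 1 library was left out. Called members went from 0 to 1 with DESeq2, limma-voom, log2(RPKM + 1) and log2(RPKM + 0.1), and lay between 0 and 1 with 1 library left out; the other settings gave 0, with 2 to 6 members at an unadjusted p under 0.05 over all settings. Called related genes went from 3 to 1 with total counts only and to 5 with no filter, and lay between 1 and 4 with 1 library left out, the lowest without NonTg 5, P301S 2 or P301S 6. The only named gene that changed direction was Map1lc3b, at -0.34 without P301S replicate 1 (edgeR adjusted p = 0.914), with up to 1.12 when NonTg replicate 4 was left out. Over all settings of the named genes, 499 values kept their side of the threshold, 10 passed where the reported fit did not, and 15 of Prkaa1, Lamp1 and Mitf no longer passed; the cause was not tested. No paired analysis was possible because the labels carry no replicate number, litter or day, and numbers given in record order pair nothing. The count filter kept 4 members from being tested. Whether depth, low levels or the counting of unique reads only was the reason was not tested.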
